A study of Mus musculus with 6 samples.

Results

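Tubulin genes encode the 2 proteins, alpha- and beta-tubulin, whose heterodimers polymerise into microtubules, the tracks of the cytoskeleton and the fibres of the mitotic spindle. Mammals carry several genes, or isotypes, of each kind, which differ mainly at the acidic C-terminal tail and in the tissues that use them. In skin epithelium microtubules carry cargo, shape cells and separate chromosomes when stem cells divide. The 10 genes described here were taken as listed, 4 for alpha-tubulin (Tuba1a, Tuba1b, Tuba1c and Tuba4a) and 6 for beta-tubulin (Tubb2a, Tubb2b, Tubb3, Tubb4b, Tubb5 and Tubb6). All 10 were found by Entrez number among the 36528 genes listed in the files, and 9 of them were among the 15132 genes with enough reads to be tested. Tubb3 had too few.

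The study sequenced polyadenylated RNA of hair follicle stem cells from the skin of Lgr5-DTReGFP mice, which carry a diphtheria toxin (DT) receptor fused to a green fluorescent protein at Lgr5, so that DT kills cells expressing that gene. Cells were sorted as CD49f+/CD34+/GFP-, which takes bulge stem cells outside the reporter-positive population. One group was given saline (labelled NaCl) and the other DT, with 3 libraries in each, and both groups carry the same allele. The labels give no dose, time after DT, age or hair cycle stage, no DT group without the receptor is among the samples, and Lgr5 mRNA measured 24.0 ± 7.20 CPM in saline, against 7.11 ± 0.143 CPM after DT (SD, n = 3), where CPM is a gene's count relative to the TMM-scaled library size. Toxin acting on the sorted cells themselves and a reaction of these cells to the loss of others cannot be told apart. Separate animals are not named either, so p-values cover library-to-library spread alone, and that spread may be technical.

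Libraries held 15300755 to 25558859 reads in genes. The 10 tubulin genes took 0.143% to 0.158% of these reads in saline and 0.201% to 0.370% in DT. Of all genes tested, 2600 rose and 1795 fell in DT (edgeR quasi-likelihood test, Benjamini-Hochberg adjusted p under 0.05). Scaled by library size only, 2099 rose and 2316 fell, and the median log2 fold change over genes moved from -0.01 to -0.11. Each of 12 proliferation markers rose, with a median log2 fold change of 3.90. Among 8 markers of the sorted cells, Krt14 rose (log2 1.78, adjusted p = 5.2e-05), and Lgr5 (-1.76), Lhx2 (-1.09) and Sox9 (-0.71) fell. Cd34 (2804 ± 355 and 2348 ± 403 CPM), Itga6, Krt5 and Krt15 did not pass the test. Marker levels of other cell types moved too, and the part of such cells in the tubulin values was not tested. The summed level of 9 immune markers was 160 to 227 CPM in saline and 107 to 132 CPM in DT, most of it Cd74. That of 6 melanocyte markers was 99.6 to 140 and 64.0 to 83.5 CPM, most of it Mitf (means 103 and 66.9 CPM). Mitf, Dct and Tyrp1 fell, and Pmel did not pass the test. Among the immune markers Itgam rose, from 0.344 to 4.03 CPM (log2 3.54, adjusted p = 0.0109), and Cd74, Cd3e and Cd3g fell. The sum over 7 fibroblast markers was 23.7 to 41.7 CPM in saline and 9.53 to 16.9 CPM in DT, most of it Col1a2 (means 28.8 and 12.3 CPM). Sums over 8 Schwann cell markers (24.2 to 30.6 and 16.5 to 32.3 CPM) and 6 endothelial markers (5.27 to 39.0 and 10.2 to 14.97 CPM) overlapped between groups. Over 7 muscle markers the sum was 2.27 to 3.17 CPM in saline and 30.2 to 119 CPM in DT, almost all of it Acta2 and Cnn1, while Myh11 and Des were under 1 CPM and Rgs5 had 0 reads. In bulk RNA, fewer cells of a type and less RNA per cell cannot be told apart.

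Tubulin mRNA was higher in DT as a whole, and unevenly between isotypes. Tubb6 rose 14.97-fold, Tuba1c 3.13-fold, Tubb5 2.54-fold, Tuba1b 1.82-fold and Tubb4b 1.60-fold, while Tuba1a, Tuba4a, Tubb2a and Tubb2b did not pass the test. Thus 5 of the 9 tested genes rose and 0 fell, against 17.2% of all genes tested that rose and 11.9% that fell, 29.0% in all. All 9 had a positive log2 fold change, as did 49.4% of all genes tested, and their median was 0.85 against -0.01 over all genes. For 6 of the 9 every DT library lay above every saline library, against 25.4% of all genes tested, and 45.9% of all genes were without overlap in either direction. The calls of Tuba1b and Tubb4b did not hold whichever library was left out. Both were lost when saline library 2 or either of DT libraries 2 and 3 was left out, which left 3 called genes each time, and that of Tubb4b also when saline library 1 was. Calls were fewer over all genes too. Of those tested, 1849 of 15768 rose without saline library 2, 1625 of 15623 without DT library 2 and 1564 of 15607 without DT library 3. With all libraries 2600 of 15132 did.

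**Figure D1:**
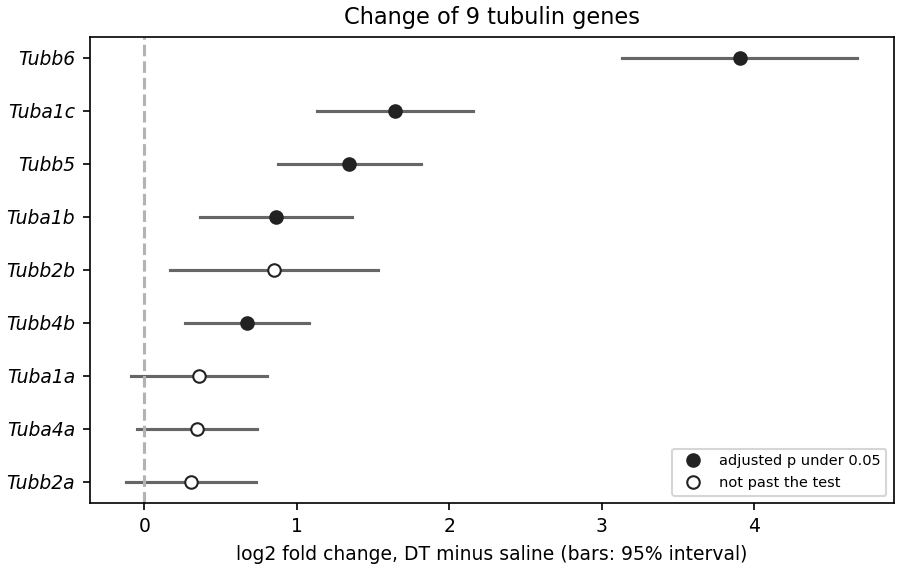
Log2 fold change, DT minus saline, of the 9 tested tubulin genes (x axis), ordered by size, from the edgeR fit over 3 libraries per group. Points are fitted values, bars are 95% intervals, and filled points passed an adjusted p of 0.05. Tubb6, at 3.90, stands beyond the intervals of the other 8 genes.

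Among alpha-tubulins, Tuba1c (Entrez 22146, chromosome 15 from 99029891 to 99038105, GRCm38) rose most. Saline libraries 1 to 3 had 51.9, 57.5 and 69.6 CPM, and DT libraries 1 to 3 had 121, 219.6 and 219.9 CPM. Every DT library was above every saline library, and DT library 1 was the lowest of its group. The log2 fold change was 1.65 (SE 0.23, adjusted p = 0.000882), with a mean of 59.7 ± 9.04 CPM in saline and 187 ± 57.3 CPM in DT (SD, n = 3).

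Its neighbour Tuba1b (Entrez 22143, chromosome 15 from 98931429 to 98934390), in many proliferating cells a main alpha isotype, measured 30.2, 26.2 and 27.6 CPM in the saline libraries, against 33.2, 60.6 and 59.4 CPM after DT. The groups did not overlap, but DT library 1 lay just above the saline libraries. The log2 fold change was 0.87 (SE 0.22, adjusted p = 0.0171). Tuba1a (Entrez 22142, chromosome 15 from 98949847 to 98953501), known for its role in developing neurons, measured 35.0, 51.7 and 53.4 CPM in the saline libraries, against 47.9, 61.4 and 70.2 CPM after DT. Here DT library 1 lay within the saline range. Its log2 fold change of 0.36 had a 95% interval of -0.09 to 0.80 (adjusted p = 0.208), so neither no change nor a 1.7-fold rise is outside it.

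Tuba4a (Entrez 22145, chromosome 1 from 75214972 to 75221261), the alpha isotype whose encoded protein lacks the C-terminal tyrosine, had the most reads of the 4. Its saline libraries had 318, 339 and 359 CPM and its DT libraries 317, 526 and 448 CPM. DT library 1 lay just under the lowest saline library, and DT libraries 2 and 3 were above all saline libraries. The log2 fold change was 0.35 (95% interval -0.05 to 0.74, adjusted p = 0.169). Without DT library 1 it was 0.52 and passed (adjusted p = 0.0147).

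Of the beta-tubulins Tubb5 (Entrez 22154, chromosome 17 from 35833920 to 35838301), the broadly expressed isotype of dividing cells, was the most abundant. Its saline libraries had 857, 732 and 659 CPM and its DT libraries 1325, 2429.8 and 1959 CPM. All DT libraries were higher, DT library 1 least so. The log2 fold change was 1.35 (SE 0.21, adjusted p = 0.0016), from 749 ± 100.4 to 1904.5 ± 555 CPM.

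The largest change was that of Tubb6 (Entrez 67951, chromosome 18 from 67390731 to 67402749), a divergent beta isotype that is scarce in most adult tissues. Saline libraries 1 to 3 had 6.92, 6.66 and 11.98 CPM, and DT libraries 1 to 3 had 71.0, 156 and 156 CPM. Even the lowest DT library was far above the highest saline library, saline library 3. The log2 fold change was 3.90 (SE 0.35, adjusted p = 7.78e-05), with a 95% interval for the fold of 8.77 to 25.5. In reads, Tubb6 had 144 to 276 per saline library and 1515 to 3909 per DT library.

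Tubb4b (Entrez 227613, chromosome 2 from 25222158 to 25224702), a widely expressed isotype also used in cilia, measured 118, 114 and 127 CPM in the saline libraries, against 136, 228 and 208 CPM after DT. The groups did not overlap, though DT library 1 was close to the saline range (log2 fold change 0.67, SE 0.18, adjusted p = 0.021). Tubb2a (Entrez 22151, chromosome 13 from 34074278 to 34078008) measured 69.2, 79.7 and 102 CPM in the saline libraries, against 80.0, 112 and 118 CPM after DT. Saline library 3 was above DT library 1, and the log2 fold change was 0.31 (95% interval -0.12 to 0.73, adjusted p = 0.2525). The neighbouring and closely related Tubb2b (Entrez 73710, chromosome 13 from 34127008 to 34130354) had few reads, 55 to 67 per saline library and 62 to 143 per DT library. Its levels of 2.28, 2.54 and 2.91 CPM in saline and 4.08, 4.16 and 5.71 CPM in DT did not overlap. The log2 fold change of 0.85 (SE 0.31) missed the threshold (adjusted p = 0.0612), with an interval of 0.17 to 1.54, and it passed with limma on the deposited RPKM values.

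Tubb3 (Entrez 22152, chromosome 8 from 123411553 to 123422015), the isotype used as a marker of neurons, had 0, 0 and 8 reads in saline libraries 1 to 3 and 3, 12 and 11 reads in DT libraries 1 to 3. Counts this low were below the filter, and no test was made. Of 10 other neuron markers 0 had enough reads to be tested, and Nefl and Snap25 had 0 reads in every library. The summed level of those 10 was 0.0868 to 0.622 CPM in saline and 0.798 to 2.35 CPM in DT.

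**Figure D2:**
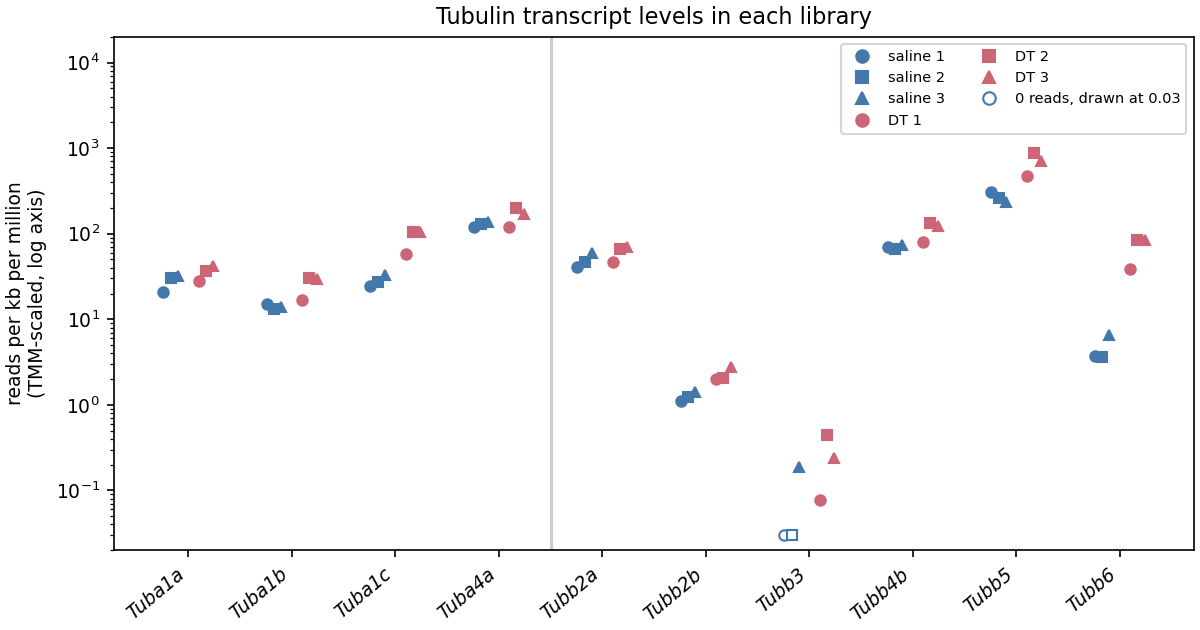
Level of each tubulin gene in each library, in CPM per kilobase with TMM scaling on a log axis, with alpha-tubulins left of the vertical line and beta-tubulins right of it. Colour gives the group and marker shape the library number, which pairs nothing, and open markers are libraries with 0 reads. Tubb5 is the highest gene in all 6 libraries, and Tubb6 moves from 3.60 to 6.47 in saline to 38.4 to 84.2 in DT.

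Across all 10 genes DT library 1 was the lowest of the DT libraries. On the log2(CPM + 0.5) scale, relative to the saline mean, it reached 3.04 for Tubb6, 1.02 for Tuba1c and 0.83 for Tubb5. DT libraries 2 and 3 reached 4.17 and 4.17 for Tubb6, 1.88 and 1.88 for Tuba1c, and 1.70 and 1.39 for Tubb5. The median of the 12 proliferation markers, measured the same way, was 2.75, 4.01 and 3.97 in DT libraries 1 to 3. The order of the DT libraries was thus alike in that DT library 1 was lowest for both, and whether the 2 are related was not tested.

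Compared per length, which allows genes to be set against each other, the order of levels in saline ran from Tubb5 (267 ± 35.7 CPM per kilobase) over Tuba4a (128 ± 7.83), Tubb4b (70.3 ± 3.98) and Tubb2a (49.03 ± 9.85) to Tuba1c (28.4 ± 4.31) and Tuba1a (27.6 ± 6.01). Below them came Tuba1b (14.1 ± 1.02), Tubb6 (4.6005 ± 1.62), Tubb2b (1.26 ± 0.155) and Tubb3. Only Tuba1c and Tuba1a overlapped among neighbours in this order. In DT the order began Tubb5 (678 ± 197), Tuba4a (163 ± 39.97), Tubb4b (112 ± 28.4), Tuba1c (88.9 ± 27.3), Tubb6 (68.9 ± 26.5) and Tubb2a (60.6 ± 12.1). From Tuba4a down to Tubb2a each gene overlapped the next, as did Tuba1a and Tuba1b below them. Within each DT library, however, these genes stood in the order given, except that Tubb6 was above Tubb2a in 2 of 3 libraries. Tubb6 was at rank 8 of the 10 genes in saline and, by its mean, at rank 5 in DT. That climb was not seen once shared sequence was allowed for, as given below.

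The sum of these levels over the 10 genes was 601, 579 and 592 in saline and 861, 1522 and 1322 in DT, 2.09-fold higher by the means. The groups did not overlap (exact two-sided permutation test, p = 0.1, the smallest that 3 libraries against 3 can give). Saline libraries differed little, with an SD of 11.1, whereas the DT libraries had an SD of 339. Alpha-tubulins together went from 198 ± 16.9 to 313 ± 79.3 and beta-tubulins from 392 ± 24.0 to 922 ± 261.

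Within a library the ratio of alpha to beta levels does not depend on scaling. It was 0.431, 0.526 and 0.569 in saline and 0.348, 0.322 and 0.354 in DT. Each DT library was below each saline library (exact permutation test, p = 0.1). The proteins are used in equal numbers, but these ratios come from uniquely aligned reads of mRNA, and the genes differ in how much of their sequence is shared.

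Isotype shares within a library show the same unevenness. Tuba1c made up 13.7%, 13.7% and 15.4% of the alpha level in saline and 25.8%, 28.2% and 30.3% in DT. Tuba4a made up 64.7% ± 1.61 in saline and 52.2% ± 2.75 in DT (SD, n = 3), with no overlap. Tuba1a (13.8% ± 2.09 and 11.5% ± 1.53) and Tuba1b (7.17% ± 1.07 and 8.14% ± 0.572) overlapped between the groups.

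Of the beta level Tubb6 made up 0.890%, 0.949% and 1.72% in saline and 6.003%, 7.32% and 8.63% in DT. Tubb2a took 12.6% ± 3.11 in saline and 6.71% ± 0.883 in DT, and Tubb4b 18.0% ± 1.69 and 12.2% ± 0.519, both without overlap. Tubb5 held 67.9% ± 5.31 and 73.4% ± 1.88, with overlapping libraries. The exact two-sided permutation test gave p = 0.1 for the 5 shares without overlap, or 0.2 adjusted over the 10 genes, so that none could pass at this number of libraries.

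**Figure D3:**
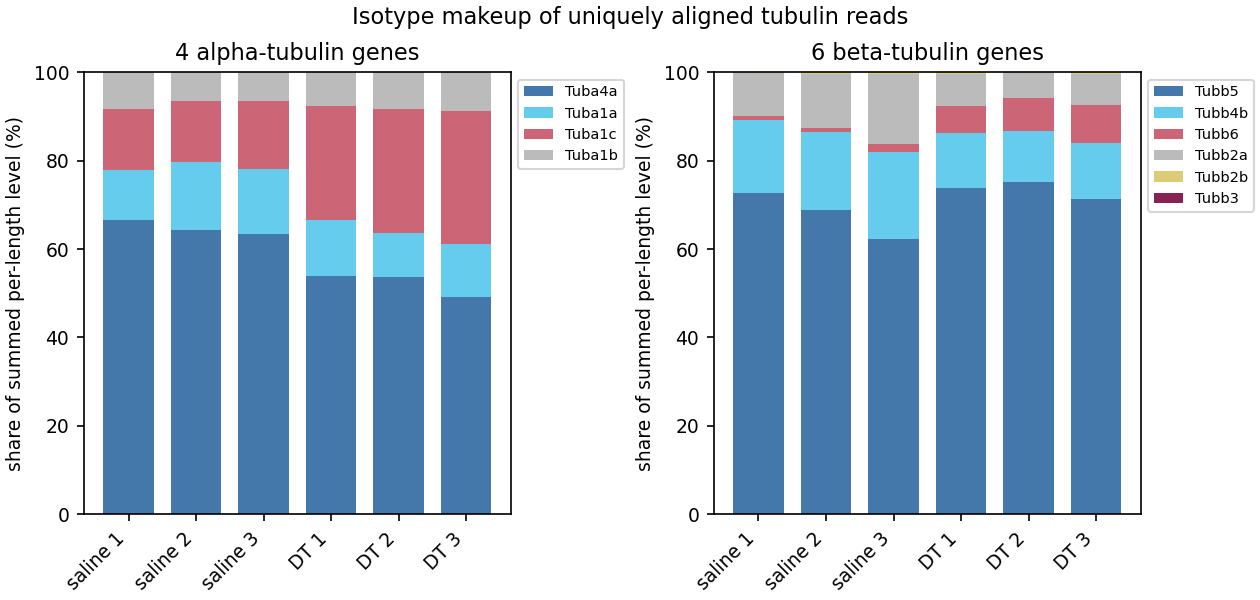
Share of each isotype in the summed per-length level of the 4 alpha-tubulin genes (left) and of the 6 beta-tubulin genes (right), in percent, for each of the 6 libraries. The Tuba1c share is 13.7% to 15.4% in saline and 25.8% to 30.3% in DT, and the Tubb6 share 0.890% to 1.72% and 6.003% to 8.63%. Tubb2b and Tubb3 are too small to be seen.

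Tubulin genes are nearly identical in places, and the authors counted uniquely aligned reads only. To describe this, each gene's longest coding transcript was cut into windows of 50 bases, and the share of windows found in transcripts of other loci was counted (GENCODE vM21, either strand). It was 82.2% for Tuba1b, 64.3% for Tuba1a and 61.0% for Tuba1c, which share them with 17 or 18 annotated genes each, the other two included. For Tubb4b the share was 50.9%, for Tubb2a 49.6% and for Tubb2b 39.3%. It was 1.11% for Tuba4a, 0.115% for Tubb5 and 0 for Tubb3 and Tubb6. The 3 Tuba1 genes thus have the largest shared parts, and the orders of level given before are orders of uniquely aligned reads. The read length is not given in the sources used here. With 75-base windows the Tuba1b share was 76.0%.

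Divided by the unshared part of each transcript, a correction chosen after the data were seen, Tuba1b stood at 79.4 ± 5.73 in saline, Tuba1a at 77.3 ± 16.8 and Tuba1c at 72.9 ± 11.0, with Tuba4a at 129.6 ± 7.91. In DT Tuba1c, at 228 ± 69.9, was then the highest alpha gene by its mean, above Tuba4a at 165 ± 40.4. Windows lying in overlapping genes were not part of the correction. They made up 47.7% for Tuba4a, 38.4% for Tuba1a, 39.4% for Tuba1b and 0 for Tuba1c, and their effect on this order was not tested. The ratio of alpha to beta per unshared length was 0.6998 ± 0.0732 in saline and 0.579 ± 0.0352 in DT, and its log2 difference shrank from -0.57 to -0.27. The groups then nearly touched, with the lowest saline library at 0.6171 and the highest DT library at 0.6169. The Tuba1c share of the alpha level was 20.2% ± 1.40 and 35.5% ± 1.94. The Tubb5 share of the beta level, which overlapped before, was 57.4%, 52.6% and 45.6% in saline and 61.3%, 63.8% and 59.4% in DT, without overlap. Tubb6, at 68.9 ± 26.5 in DT, stood below Tuba1a (99.0 ± 18.6), Tubb2a (120 ± 24.0) and Tuba1b (145 ± 43.9) by the means, as it did in saline. Its climb in rank by uniquely aligned reads was thus absent per unshared length.

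Overlapping genes can add reads to a count. They can also lower it, where reads in the overlap do not count as unique to a gene model. The sources used here do not say whether counting used strand. Tuba4a shares 47.7% of its windows with Stk16 on the opposite strand, which was at 67.6 and 62.4 CPM and did not pass the test (log2 fold change -0.12, adjusted p = 0.54). Tubb4b shares 4.65% with Fam166a on the opposite strand, at 3.28 and 4.37 CPM. Of the Tuba1a windows 38.4% lie in Gm49450, a gene model on the same strand, and of the Tuba1b windows 39.4% lie in Gm49450 or in Gm41396, which is on the opposite strand. The 3 Tuba1 genes are neighbours on chromosome 15, with 15456 bases between Tuba1b and Tuba1a and 76389 between Tuba1a and Tuba1c. Tubb2a and Tubb2b lie 48999 bases apart on chromosome 13, and the other 5 genes stand on chromosomes of their own.

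Promoters are shown for 4 of the 5 genes that rose (Tubb6 has no entry in the table used), because genes that moved together can be compared at the sequences before their starts. Each run holds 250 bases before and 50 after the start given in the RefSeq table of GRCm38.p6, 5′ to 3′ on the strand of the gene. Capitals mark matches to CCAAT, the box bound by NF-Y, on either strand (ATTGG on the other), and to TTTGAA or TTCGAA, forms of the CHR element known from promoters of cell cycle genes, on either strand (TTCAAA for the first). No match of one motif overlaps another.
Tubb4b, chr2:25224653-25224952, minus strand: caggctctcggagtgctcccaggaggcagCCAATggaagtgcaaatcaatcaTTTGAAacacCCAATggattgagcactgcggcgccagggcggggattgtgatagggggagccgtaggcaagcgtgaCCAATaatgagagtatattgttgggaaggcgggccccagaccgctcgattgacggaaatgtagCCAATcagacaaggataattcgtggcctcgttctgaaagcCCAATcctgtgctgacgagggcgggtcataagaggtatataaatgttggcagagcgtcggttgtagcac
Tubb5, chr17:35838252-35838551, minus strand: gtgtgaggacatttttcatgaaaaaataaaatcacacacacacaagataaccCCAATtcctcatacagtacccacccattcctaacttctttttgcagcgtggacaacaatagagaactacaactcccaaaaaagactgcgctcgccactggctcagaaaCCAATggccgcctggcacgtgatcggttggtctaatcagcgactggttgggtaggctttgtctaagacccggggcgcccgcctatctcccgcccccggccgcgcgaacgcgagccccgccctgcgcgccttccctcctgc
Tuba1c, chr15:99029641-99029940, plus strand: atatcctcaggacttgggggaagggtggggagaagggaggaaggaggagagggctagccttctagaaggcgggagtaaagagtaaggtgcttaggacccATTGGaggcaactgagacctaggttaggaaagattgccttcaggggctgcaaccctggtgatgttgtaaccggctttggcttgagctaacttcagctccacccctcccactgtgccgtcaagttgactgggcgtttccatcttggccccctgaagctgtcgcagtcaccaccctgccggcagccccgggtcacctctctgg
Tuba1b, chr15:98934341-98934640, minus strand: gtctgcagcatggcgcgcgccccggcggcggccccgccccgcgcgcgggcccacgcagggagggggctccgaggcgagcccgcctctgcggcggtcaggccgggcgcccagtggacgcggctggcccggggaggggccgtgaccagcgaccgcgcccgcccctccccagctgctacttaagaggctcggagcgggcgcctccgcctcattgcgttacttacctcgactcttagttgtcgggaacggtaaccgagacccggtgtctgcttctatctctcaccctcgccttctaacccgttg

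The Tubb4b promoter holds 5 CCAAT matches and 1 TTTGAA match at -198 from the start. Of 32851 promoters of the same length in the table, 0.271% hold 5 or more CCAAT matches. That cut is the count of Tubb4b itself, the highest among the 8 tubulin promoters, so the share is no test. Tubb5 holds 2 CCAAT matches, at -198 and -90, as do or exceed 11.7% of all promoters. Tuba1c holds 1, at -151, and Tuba1b holds 0 of the 3 motifs. Over the 8 tubulin genes with a promoter in the table, 5 hold at least 1 CCAAT match, against 37.4% of all promoters. Among them, with 1 match each, are Tuba1a, which did not pass the test, and Tubb3, which was not tested. TTTGAA was found in 1 of the 8, against 17.9% of all promoters, and TTCGAA in 0, against 1.56%. These matches are letters in a window and no measurement of binding.

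Other tubulin genes were measured beside these 10. Of 10 further genes, for alpha, beta, gamma, delta and epsilon tubulins, 6 were tested. Of the 6, 3 rose and 0 fell, where 17.2% of all genes tested rose and 11.9% fell. The median log2 fold change of the 6 was 0.69. Tubg1, the gamma-tubulin that nucleates microtubules, went from 35.9 ± 1.65 to 74.4 ± 20.5 CPM (log2 1.05, adjusted p = 0.00449), and Tube1, a centriolar tubulin, from 5.66 to 13.6 CPM (log2 1.26, adjusted p = 0.0274, lost without DT library 2 or 3). Tubb4a had 0 reads in every saline library and 24, 22 and 18 in DT libraries 1 to 3, at least 25.4-fold higher against a floor of 3 counts over the saline libraries (counting error only). Its near copies include Tubb2a and Tubb2b. Tubd1 did not pass (log2 0.32, adjusted p = 0.34).

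Newly made tubulin is folded by prefoldin and the ring-shaped chaperonin TRiC, and then assembled into dimers by the cofactors TBCA to TBCE. All 8 TRiC subunits rose, where 17.2% of all genes tested did. The median log2 fold change of the 8 was 0.77, and at least 7 rose whichever library was left out. The smallest p-values were those of Cct5 (log2 0.78, from 568 ± 48.0 to 974 ± 69.7 CPM, adjusted p = 0.00201), Cct3 (0.97), Cct6a (0.76) and Tcp1 (0.90). TRiC also folds actin and other proteins. Of the 13 cofactor and prefoldin genes 4 rose, the prefoldin subunits Pfdn1 (0.70), Pfdn4 (0.72) and Vbp1 (0.72) and the alpha-tubulin cofactor Tbcb (0.44), and Pfdn5 fell (-0.61, adjusted p = 0.0108). The median was 0.35, and the shares over all genes tested were 17.2% that rose and 11.9% that fell. Scaled by library size only, 2 of the 13 rose, and 0 rose without DT library 2, 1 without saline library 2 or DT library 3 and 2 without saline library 3. The call of Pfdn5 was lost without saline library 2.

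Cells destroy tubulin mRNA when free dimers are plentiful, through the ribosome-bound factor Ttc5 and its partner Scaper. Ttc5 measured 106 ± 21.3 CPM in saline, against 99.7 ± 13.2 CPM after DT (log2 -0.08, adjusted p = 0.745). Scaper fell from 92.8 ± 7.78 to 67.05 ± 5.69 CPM (log2 -0.47, adjusted p = 0.026), a call lost whenever saline library 2, saline library 3, DT library 2 or DT library 3 was left out.

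Of 8 genes of the ring complex that holds gamma-tubulin 1 rose, the targeting subunit Nedd1 (log2 0.60, adjusted p = 0.0373), and 0 fell, with a median of 0.15. Neither count is above the share of all genes tested, 17.2% that rose and 11.9% that fell. Nedd1 lost its call with scaling by library size, and when saline library 1, saline library 3, DT library 2 or DT library 3 was left out. Mzt1 (0.41, adjusted p = 0.058), Tubgcp6 (-0.46, adjusted p = 0.0617) and Tubgcp5 (-0.39, adjusted p = 0.128) did not pass. Mzt1 passed without DT library 1, and the other two without saline library 1. Tubgcp6 also passed with DESeq2 and with scaling by library size (adjusted p = 0.0302), where 0 of the 8 rose and 1 fell.

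Of 17 tested enzymes that modify tubulin 3 rose and 1 fell, and the median was 0.17. These counts are near or below the shares of all genes tested, 17.2% and 11.9%. Atat1, which acetylates alpha-tubulin inside the microtubule, fell from 17.7 ± 1.32 to 9.18 ± 1.62 CPM (log2 -0.94, adjusted p = 0.00875). The glutamylase Ttll7 (1.02, adjusted p = 0.0333), the glycylase Ttll3 (0.51, adjusted p = 0.0424) and the deglutamylase Agtpbp1 (0.61, adjusted p = 0.0495) rose by calls near the threshold. All 3 were lost with scaling by library size, without saline library 2 or 3, and without DT library 3. Those of Ttll7 and Ttll3 were also lost without DT library 1, those of Ttll3 and Agtpbp1 without DT library 2, and that of Agtpbp1 without saline library 1. Without DT library 1, 3 of the 17 fell. Hdac6, which removes the acetyl group, was at 39.1 and 39.9 CPM (log2 0.03, adjusted p = 0.91).

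Among genes that sever or destabilise microtubules 3 of 7 rose and 0 fell, where 17.2% of all genes tested rose and 11.9% fell. The median of the 7 was 0.36. Fignl1 rose from 8.78 ± 0.8002 to 64.4 ± 32.8 CPM (log2 2.87, adjusted p = 0.0006) and Stmn1, which binds free tubulin dimers, from 3.97 ± 0.931 to 18.3 ± 6.26 CPM (log2 2.20, adjusted p = 0.000971). Katnal1 (-0.83, adjusted p = 0.0677) did not pass, but did so with DESeq2, with scaling by library size and without saline library 1. Of 23 tested genes for proteins that bind microtubules 3 rose and 4 fell, and the median was -0.30, where 17.2% of all genes tested rose and 11.9% fell. The spindle factor Tpx2 (3.58, from 6.998 ± 2.27 to 83.7 ± 21.8 CPM, adjusted p = 5.15e-05), the doublecortin-like kinase Dclk1 (1.60) and the plus-end protein Mapre1 (0.67) rose. Macf1 (-0.63), which links microtubules to actin, the minus-end protein Camsap3 (-0.97), Map9 (-0.90) and the scarce Mapt (-2.63, from 0.728 to 0.111 CPM) fell. The number that fell was 2 without saline library 2 or DT library 3, and 6 with scaling by library size.

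**Figure D4:**
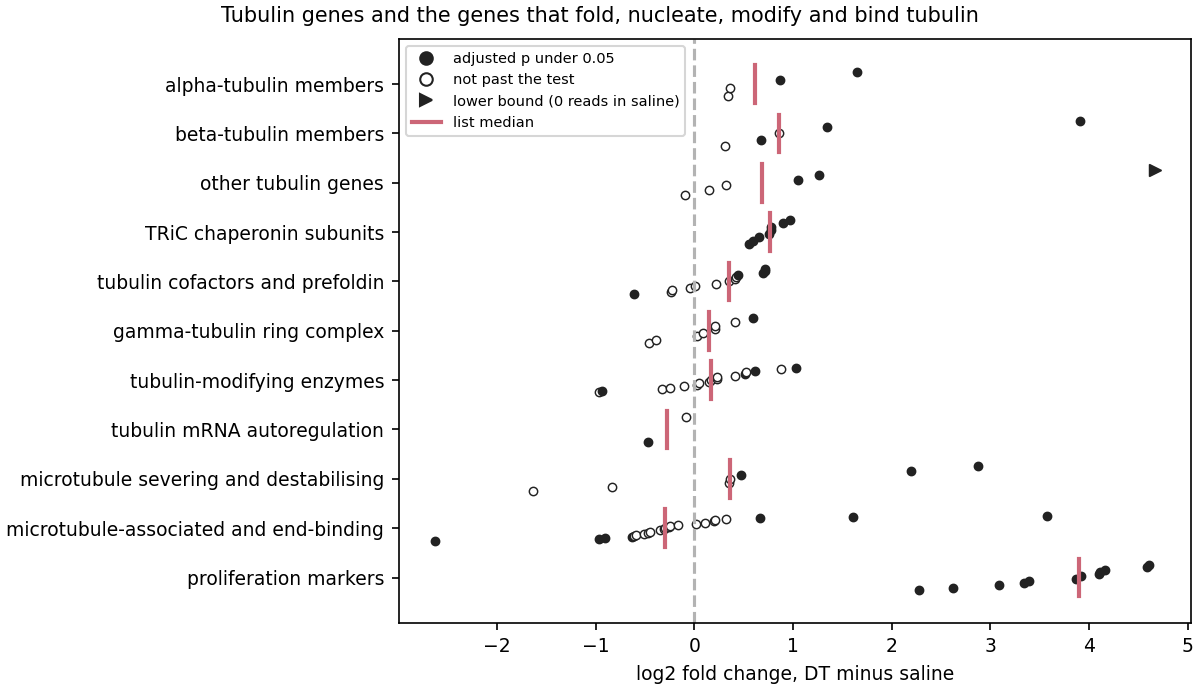
Log2 fold change, DT minus saline, of each tested gene (x axis) in the 2 groups of tubulin genes, in 8 lists of genes that act on tubulin or microtubules and in the proliferation markers. Filled points passed an adjusted p of 0.05, red lines are list medians, and the triangle is the lower bound of Tubb4a. All 8 TRiC subunits lie to the right of 0, whereas the genes for microtubule-binding proteins spread to both sides.

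All 12 proliferation markers had larger log2 fold changes than the tested members other than Tubb6. The 4 with the smallest p-values were Ccnb2 (log2 4.605), Plk1 (4.59), Cdk1 (4.11) and Aurkb (4.16), and the least changed of the 12, Ccna2, had a log2 fold change of 2.28. That of Tubb6 was 3.90 and lay within their range, and those of Tuba1c and Tubb5 lay below it.

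Over the 6 libraries, the genes whose log2 level followed the log2 sum of the tubulin genes most closely, among 10094 with at least 5 CPM and a gene name, were Hexa (Pearson r = 0.999), Nop58 (0.998), Taf9 (0.998), Mrpl16 (0.998) and Psmc2 (0.998). For Hexa the saline libraries had 68.6, 65.7 and 65.3 CPM and the DT libraries 96.3, 159 and 145 CPM. Each of the 5 shares with the tubulin sum a narrow saline group, a DT library 1 in between and a DT library 2 above DT library 3. With 2 groups of 3 libraries, such values describe a pattern and carry no p. Of the tubulin genes themselves Tubb5 (0.986), Tuba1c (0.979), Tubb4b (0.979), Tuba1b (0.978) and Tubb6 (0.959) followed the sum that they are part of more closely than Tubb2a (0.728) and Tuba1a (0.699).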

How the data were processed

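Gene counts in 6 libraries, 3 per group, were used. Reads were aligned with GSNAP to GRCm38, per the submitters' processing notes, and the deposited count is the number of reads aligning uniquely to a gene model, per the file headers. The authors also deposited an RPKM adjusted by a library size factor, per the file headers, which equalled the count divided by gene length and 1 factor per library (largest relative deviation 6.2e-15). Relative gene lengths were taken from this, with library factors centred on 1. Not given in the sources used here were the aligner version, the gene models and whether strand was used. Symbols came from RefSeq, GRCm38.p6, for 31049 of 36528 Entrez numbers.

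Genes were kept by filterByExpr (minimum count 10, total 15), scaled by TMM and tested with edgeR 4.0.16 in R 4.3.3 (robust quasi-likelihood test, no covariates, Benjamini-Hochberg over 15132 genes, 4 residual degrees of freedom). SEs are the absolute log2 fold change over the root of F. Depth limits Tubb3 and Tubb2b most. Single values per library were compared by exact permutation.

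Named were all 10 members, up to 4 genes per list with the smallest p, both autoregulation genes and 5 genes most like the tubulin sum. Pfdn4, Hdac6, Ccna2, Map9, Mapt, Camsap3, Stk16 and Fam166a were added after their values were seen. The members and lists were chosen with earlier results of these data known. Alternatives were other scalings, filters and tools (DESeq2 1.42.0, limma 3.58.1), the number series of sample identifiers, and each library left out. One gene of the severing list, counted there, is not reported here by name.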

Additional observations from a re-analysis of the deposited data

How the results depend on the processing

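No paired analysis was possible because the labels give no replicate numbers. The number series of the sample identifiers holds 2 libraries per group in one series and 1 per group in the other. With it as a block 5 tubulin genes passed, and within the larger series 3 (Tuba1c, Tubb5 and Tubb6). Of all genes tested, 2450 of 15132 rose with the block and 1097 of 15191 within the larger series, against 2600 of 15132 in the main fit. Leaving out 1 library gave 3 to 6 tubulin genes, with a median log2 fold change of 0.65 to 0.94, while 1564 to 2826 of all genes rose. The tubulin median was 0.64 with limma on log2(RPKM + 1), which shrinks low genes. The calls of Tuba1c, Tubb5 and Tubb6 held under all 16 alternatives, with adjusted p up to 0.0116, 0.0322 and 0.00314. Over the 9 genes 132 of 144 alternative values kept their side of the threshold, 9 lost and 3 gained it, and 0 changed sign. For the 34 other named genes 461 of 544 kept it, 73 lost and 9 gained it, and Ttc5 changed sign without saline library 3 (-0.26 to 0.020 without 1 library).

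The log2 difference of the summed level was 0.85 to 1.27 without 1 library and 0.93 scaled by library size. That of the alpha to beta ratio was -0.68 to -0.48 without 1 library and -0.27 per unshared length, which divides the Tuba1 genes by the smallest unshared parts. Shares without overlap numbered 5, or 5 to 9 without 1 library (9 without saline library 1), where fewer libraries overlap less easily. Within the larger series 4 of 8 TRiC subunits and 1 of the 6 other tubulins passed, and 1 of the genes for microtubule-binding proteins fell. In that fit 1097 of all 15191 genes tested rose and 473 fell, fewer than the 2600 and 1795 of 15132 in the main fit. Scaled by library size only, 0 of the modifying enzymes and 2 of the cofactor and prefoldin genes rose. The read counts of Tubb2b and Tubb3 limit what can be said of them.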
